A study of Arabidopsis thaliana with 6 samples.

Results

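The regions described here are the SPL7 ChIP-seq peaks that lie over moderately or weakly expressed genes of Arabidopsis thaliana. A peak was taken when it overlapped, by at least 1 bp, the locus of at least 1 gene row of the RNA-seq files and when every overlapped row had a mean below 400 FPKM over the 4 RNA-seq libraries. FPKM is the number of RNA fragments of a gene, divided by transcript length and by the size of the library. This held for 407 of 1535 peaks (26.5%). Another 809 peaks (52.7%) touched a row at 400 FPKM or more, and 319 (20.8%) touched no row. Transcript level therefore chose these peaks, and the levels of their genes are given as a description.

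All plants were whole seedlings, grown for 7 days at 22 °C under continuous white light after 4 days of cold at 4 °C. Chromatin came from seedlings with a 35S:FLAG-SPL7 transgene on standard MS (Murashige and Skoog) medium and was pulled down with a FLAG antibody; spl7 mutant seedlings, which lack the tagged protein, were the negative control, and 1 peak list resulted. The 35S promoter is active in most tissues, so the tagged protein was not made under the control of SPL7's own promoter. The labels do not name the mutant allele or the genetic background of the transgene. Transcripts were measured in 4 groups of 1 library each: spl7 with 5 µM added CuSO4, spl7 on standard MS, Col-0 wild type with 5 µM added CuSO4, and Col-0 wild type on standard MS. No group has a replicate, so no difference between libraries has a replicate check and no test was run on any of them.

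SPL7 belongs to the plant transcription factors with an SBP domain, which bind DNA at a GTAC core. It is known as the regulator that switches on copper uptake genes and copper microRNAs when copper is scarce, and the microRNAs then lower the transcripts of dispensable copper proteins, which saves copper for photosynthesis. A ChIP-seq peak marks where DNA fragments were recovered more often than a background model predicts, and the score attached to it was given by the authors' peak caller. No label or header says what that score measures, so it serves below to describe and rank peaks within this 1 list. No genome sequence was used here, and GTAC motifs in the peaks were not analysed.

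The peaks were narrow and most had low scores. Their median width was 342 bp, with quartiles of 331 and 384 bp and a range of 163 to 1013 bp. The median score was 197.66, with quartiles of 182.83 and 242 and a range of 164.95 to 3100. Of the 407 peaks, 131 (32.2%) scored above the median of the whole list (223.61), 33 (8.11%) scored at least 500, and 30 (7.37%) were at least 500 bp wide. The peaks over highly expressed genes had a median width of 427 bp and a median score of 265.87, and 212 of them (26.2%) scored at least 500. The peaks outside gene rows had a median width of 336 bp and a median score of 213.25. The medians of this set and of the 407 peaks include a chromosome 2 cluster, described below. These are 3 sets of regions from 1 list, and the differences between them were not tested.

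**Figure D1:**
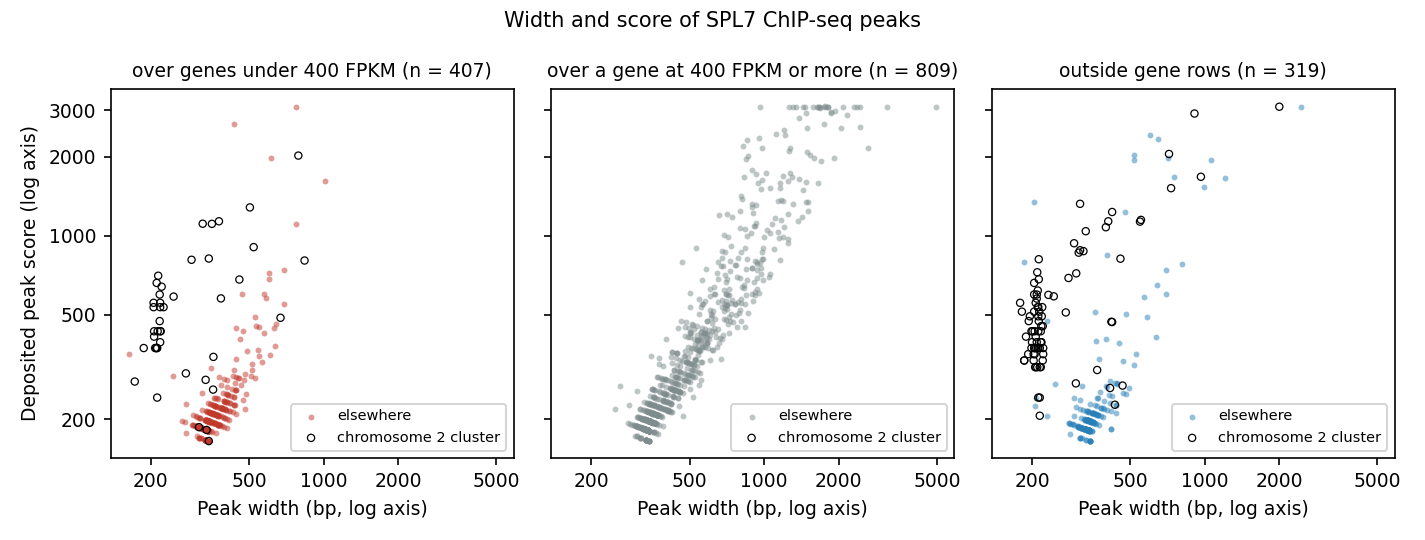
Width (bp, log axis) against deposited score (log axis) of each SPL7 peak, in 3 panels by the level of the overlapped genes, with 1 point a peak; open circles are the peaks of a cluster on chromosome 2. In the panel of genes under 400 FPKM, wider peaks outside the cluster tend to score higher (Spearman's rho 0.67). The relation was not computed for the other panels. Many peaks of the cluster are at most 250 bp wide and still score above 300.

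A cluster of peaks on chromosome 2 stood apart from the rest. Between positions 3000001 and 4000000 of TAIR10 chromosome 2 lay 43 of the 407 peaks (10.6%), the first starting at 3269255 and the last ending at 3626458. The same stretch held 89 peaks outside gene rows and 0 peaks over highly expressed genes. It is known as background that the reference sequence carries a large insertion of mitochondrial DNA near the centromere of this chromosome. The extent of that insertion was not examined here, so no peak is placed in it. The 43 peaks fell in separate groups: none lay between 3501978 and 3616157, and those beyond lay over AT2G07981 and AT2G08986. The median score in the cluster was 487 and the median width 221 bp, against 196 and 343 bp for the 364 peaks elsewhere. The 230 peaks outside gene rows that lay elsewhere had similar medians, 197 and 339.5 bp. Above the median score of the whole list were 25.2% of those 230 and 25% of the 364. Of the 26 peaks no wider than 250 bp, 24 lay in the cluster, with scores of 242 to 704 over all 26.

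Genes in the cluster had almost no measured transcript. Of 26 rows under these peaks, 24 were listed at 0 FPKM in all 4 libraries, as were 84 of the 91 rows in the whole stretch. The RNA-seq values rest on uniquely mapped reads alone, per the series description, so reads from sequence that is present in several copies are lost. No source used here says how ChIP-seq reads with several matches were treated, and the part of sequence copies in these peaks was not tested. Both rows with a signal were low: AT2G07774 stood at 4.75 FPKM in spl7 with copper, 4.54 FPKM in spl7 on MS and was listed at 0 in both wild-type libraries, and AT2G07715 stood at 1.31 to 2.15 FPKM. AT2G07774 did not reach the 5 FPKM needed to be counted in any comparison.

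Most of the highest scores lay over rows listed at 0 FPKM, which with uniquely mapped reads alone need not mean that no transcript was present. Of the 10 top peaks, 8 covered rows listed at 0 in all libraries and 5 were in the chromosome 2 cluster. The top peak (score 3100, 776 bp) covered AT2G01023, on chromosome 2 at 9654 to 10429. AT2G01008, another row listed at 0, carried 2 peaks (scores 354 and 228) and has the ribosomal RNA gene AT2G01010 among the 2 genes on either side of it by order in the RefSeq table; of the 432 overlapped genes with a place in that table it was the only 1 of this kind, against 2 of 24687 genes under 400 FPKM. The peak over AT5G10340 (score 2663, 435 bp; chromosome 5, 3253060 to 3253494) lay at a gene with 3.84 FPKM in spl7 with copper, 4.43 FPKM in spl7 on MS, 2.92 FPKM in wild type with copper and 2.80 FPKM in wild type on MS.

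The other top peaks outside the cluster covered AT3G20362 (score 1973, 615 bp), AT1G40104 (score 1615, 1013 bp, the widest of all) and SPL7 itself (score 1104, 770 bp). Within the cluster the top peaks covered AT2G07806 (score 2019, 790 bp), AT2G08986 (1281), AT2G07787 (1135), AT2G07795 (1111) and AT2G07667 (1109). The wide peaks of the cluster also included 837 bp over AT2G07981. Several rows carried many separate peaks: AT2G08986 had 8, AT2G07798 and AT2G07806 had 5 each, AT1G40104 had 4 and AT2G07667 had 3, and all of these rows were listed at 0 FPKM in every library.

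SPL7, the regulator under study, was the 1 row above 0 FPKM with 3 or more of these peaks. It carried 6 (AT5G18830; chromosome 5, 6275990 to 6280681), spread along the locus from 6275987 to 6280259. The peak at the low-coordinate end, 6275987 to 6276756, scored 1104, whereas the other 5 scored 164.95 to 270. The seedlings used for ChIP carried SPL7 sequence in the transgene as well as at the native locus, and reads from the 2 places cannot be told apart in this list. SPL7 transcript stood at 20.7 FPKM in spl7 with copper, 20.2 FPKM in spl7 on MS, 105 FPKM in wild type with copper and 107 FPKM in wild type on MS. Both libraries labelled spl7 were thus lower than both labelled wild type.

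Every peak touches a locus by the rule that chose it, and its place within the locus varied. Of the 407, 257 (63.1%) lay wholly within a locus, 149 (36.6%) crossed an edge and 1 covered a whole locus. In 255 (62.7%) the midpoint was within 500 bp of the nearest end of an overlapped locus, with a median distance of 336 bp, and in 67 (16.5%) it was over 1000 bp away. The files give no strand or exon structure, so the start and the end of a gene cannot be told apart here. Of the 407 peaks, 345 overlapped 1 row each, 54 overlapped 2 rows each and 8 overlapped 3 rows each. Among the peaks over 3 rows were one of 630 bp and score 446 over AT4G28230, AT4G28240 and the alternative NAD(P)H dehydrogenase gene NDB1, and one of 375 bp and score 206 over SECA2, a subunit of a chloroplast protein translocase, AT1G21651 and the chloroplast NAD kinase gene NADK2. The remaining 3 of the 5 named for their number of rows covered AT5G41680, AT5G41685 and AT5G41690 (score 324), AT1G08310, AT1G08315 and NVL (score 241), and 3 rows of the chromosome 2 cluster listed at 0, AT2G07599, AT2G07696 and AT2G07785 (score 412).

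Wider peaks had higher scores outside the cluster. Across the 364 peaks outside the cluster, Spearman's rho between score and width was 0.67, and over all 407 peaks it was 0.41. Between score and the highest mean FPKM under the peak it was 0.09 outside the cluster and -0.14 over all 407, but the rule limits that level to below 400 FPKM, so these values say nothing of the relation over the full range of levels. All points come from 1 peak list, and these values are a description.

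The limit of 400 FPKM did not fall at a gap. Just inside it lay the peaks over HCF101 (399.8 FPKM, score 214), a scaffold protein for iron-sulfur clusters of photosystem I, FLA18 (397.8 FPKM, score 183), a fasciclin-like cell wall protein, and AT2G47380 (397.8 FPKM, score 230). Just outside it lay the peaks over AT1G06640 and AT1G06645 (400.5 FPKM for the higher row, score 183), XTH31 (401.5 FPKM, score 181), an enzyme of xyloglucan remodelling, and PDAT (402.4 FPKM, score 195). With a limit of 200 FPKM 282 peaks qualified, and with 800 FPKM 545. The rule looks at overlapped rows alone, so a highly expressed gene can lie beside a peak of this set. Among the 153 rows within 1 kb that were not overlapped were AT1G74470 (mean 6961 FPKM), CP12-1 (6869 FPKM), ACT2 (2524 FPKM) and PETE1 (1836 FPKM). How many peaks had such a neighbour was not computed.

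Together the peaks covered 434 of 27052 gene rows. Their levels were mostly moderate. The median of the mean FPKM was 108, with quartiles of 22.8 and 220, whereas all 25235 rows under 400 FPKM had a median of 23.9 and quartiles of 0 and 84.1. At least 100 FPKM was reached by 224 rows (51.6%), against 20.8% of all rows under the limit, and 64 rows (14.7%) were listed at 0 in every library, against 26.5%. Outside the chromosome 2 cluster 40 of 408 rows (9.80%) were listed at 0. The loci were also longer, with a median of 2839 bp against 2075 bp, and a longer locus offers more room for an overlap. In the whole list 1817 rows (6.72%) reached 400 FPKM, and 809 of the 1216 peaks over a row touched at least 1 of them. Rows and peaks are different units, so these 2 values are not to be compared. The share of the 1817 rows that lay under a peak was not computed.

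**Figure D2:**
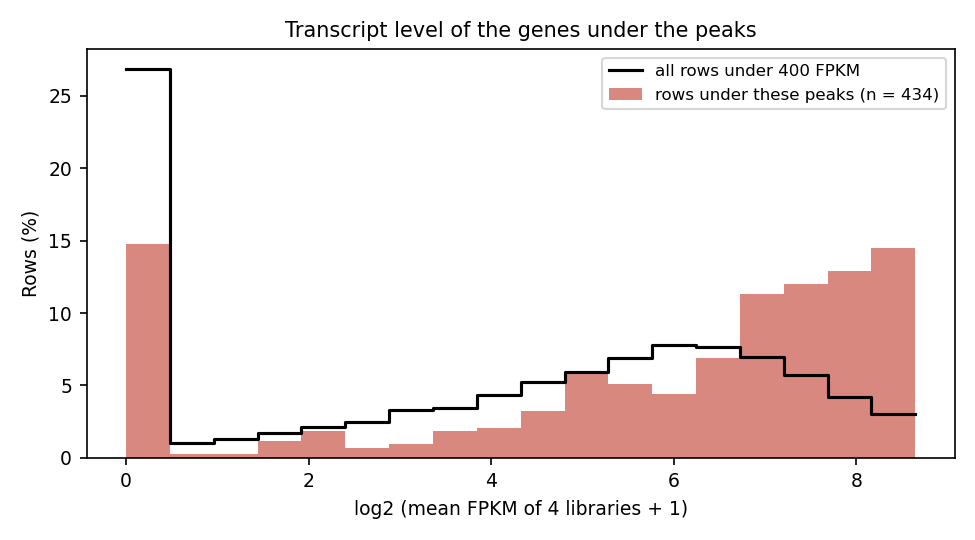
Share of rows (%) by log2 of the mean FPKM over 4 libraries plus 1, for the 434 rows under these peaks (filled bars) and all 25235 rows under 400 FPKM (black line). The rows under the peaks lie more to the right, with 51.6% at 100 FPKM or more against 20.8%, and 14.7% listed at 0 against 26.5%.

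The overlapped rows were 1.60% of all rows, and the counts over short gene lists that follow are to be read against that share; a count of 0 in such a list is no result about its genes. Of 27 matched genes of copper homeostasis (transporters, reductases, chaperones, ATPases and metallothioneins) 0 lay under these peaks, and 6 lay under peaks over highly expressed genes: CCH, COX17, MT1A, MT2A, MT2B and MT3. Of 17 copper proteins and superoxide dismutases 0 lay under them, and 4 lay under peaks over highly expressed genes, CSD2, FSD1 and the plastocyanins PETE1 and DRT112. PETE1, and ACT2 among the reference genes, also lay within 1 kb of a peak of this set without being overlapped by it. SPL7 was the 1 member among 16 genes of the SBP family. The count was 0 in each of the other lists. These held 25 iron and zinc genes, 18 light signalling genes, 12 clock genes, 11 reference genes, 10 root markers and 10 seed markers. Peaks over highly expressed genes also covered 4 of the 11 reference genes (ACT2, AT5G60390, GAPC1 and UBQ10), 1 iron and zinc gene and 1 light signalling gene. The share of all rows under those peaks was not computed, so these counts are no result about copper genes. The lists are selections: ZIF1, known for zinc tolerance, RVE1, known for clock output, and the photoreceptor gene UVR8 are in none of them and lay under these peaks.

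Some copper microRNA genes stood near genes under the peaks. The genes MIR398b, MIR398c and MIR408 stood within 2 places of a gene under a peak in the RefSeq order (TAIR10.1). MIR397a, MIR398a and MIR857 did not. MIR398b and MIR398c are both listed through the same peak, that over AT5G14550 and AT5G14560. The share of all microRNA genes that stand so near was not computed, so this is no result about copper microRNAs. miR398 is known to target CSD1, CSD2 and their chaperone CCS, and miR408 is known to target laccase and plantacyanin transcripts. MicroRNA genes as a class were about as common beside these genes as beside others: 14 of 432 (3.24%) had one within 2 places, against 3.01% of 24687 genes under 400 FPKM. For transfer RNA genes the shares were 8.10% and 5.82%. Many of the genes beside a transfer RNA gene lay in the chromosome 2 cluster, such as AT2G07667, AT2G07669 and AT2G07674. The share without the cluster was not computed, so the difference is no result about the peaks elsewhere.

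Among the 7 genes that differed at least 2-fold in FPKM + 1 between libraries in some comparison, SPL7 had the peak with the highest score and AT5G14550, beside MIR398b, the next. Its peak was 690 bp wide, scored 743 and lay on chromosome 5 at 4690462 to 4691151, across the low-coordinate end of the locus shared by AT5G14550 and AT5G14560 (4691006 to 4694086). MIR398b is the next gene after AT5G14550 by start position. AT5G14550 stood at 15.7 FPKM in spl7 with copper, 17.1 FPKM in spl7 on MS, 18.4 FPKM in wild type with copper and 66.4 FPKM in wild type on MS. The library from wild type on MS was thus high and the other 3 were close together. AT5G14560 was listed at 0 in all 4 libraries. The microRNA's own transcript was not analysed here, and whether its precursor adds reads to AT5G14550 was not tested.

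The peak at MIR408 was 396 bp wide, scored 283 and lay on chromosome 2 at 19319530 to 19319925, across the low-coordinate end of AT2G47020 (19319685 to 19322391). MIR408 is the next gene after AT2G47020 by start position. AT2G47020 stood at 20.2 FPKM in spl7 with copper, 22.3 FPKM in spl7 on MS, 20.9 FPKM in wild type with copper and 31.6 FPKM in wild type on MS. It was highest in the same library, yet its log2 ratios of -0.49 for spl7 on MS over wild type on MS and -0.57 for copper over MS in wild type stayed under 2-fold. The row on the other side of the peak, AT2G47010 (19317126 to 19319397), was not overlapped but lay within 1 kb. It stood at 5.46 FPKM in spl7 with copper, 5.41 FPKM in spl7 on MS, 7.66 FPKM in wild type with copper and 41.0 FPKM in wild type on MS. Its log2 ratio was -2.71 for spl7 on MS over wild type on MS and -2.28 for copper over MS in wild type, and both ratios use the library of wild type on MS. AT2G47010 was chosen after its values were seen, from 153 rows within 1 kb that were not overlapped. By the counting rule below it was the 1 lower in spl7 on MS, of 120 (0.833%, against 1.05% of all rows). With copper in wild type it was the 1 lower of 118 (0.847%, against 0.379%). AT2G20635 was counted as higher with copper in wild type (1.54) and spl7 (1.76), and SOT12 in spl7 (1.30). Those shares were 0.847% and 1.67%, against 0.95% and 1.99%.

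**Figure D3:**
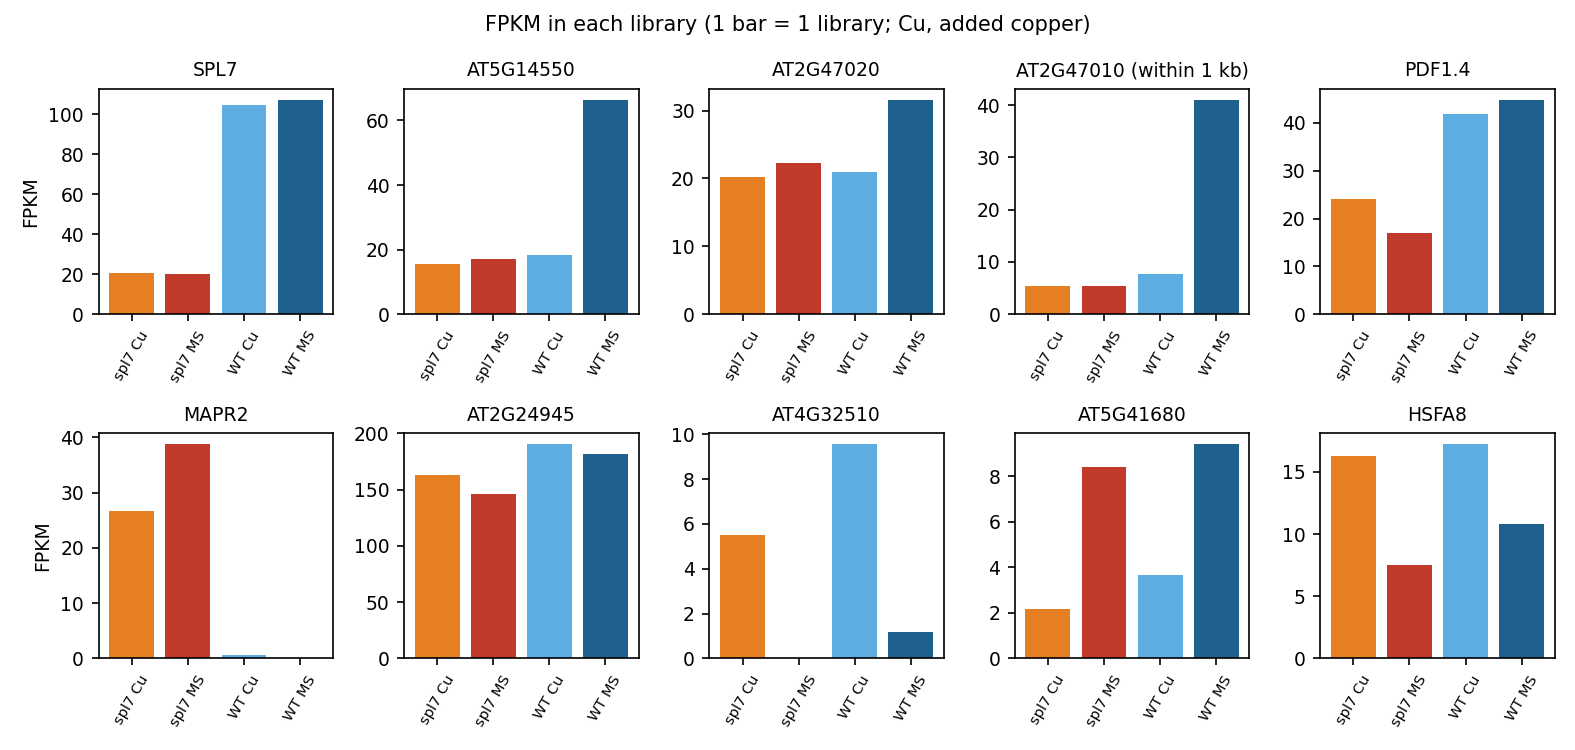
FPKM (linear axes, each with its own range) in spl7 with copper, spl7 on MS, wild type with copper and wild type on MS for 10 genes, with 1 bar a library and no error bars because there are no replicates. AT5G14550 and the neighbour AT2G47010 are high in wild type on MS alone (66.4 and 41.0 FPKM), whereas SPL7 and PDF1.4 are lower in both spl7 libraries.

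Few genes under the peaks differed between libraries, and few of all rows did. Counted as higher or lower were genes with 5 FPKM or more in 1 or both libraries and at least a 2-fold ratio after adding 1 FPKM to each value. Log2 ratios carry the same added 1 FPKM and so understate changes of low genes. Over the 4 comparisons 7 genes were counted at least once, of 355 to 358 that reached 5 FPKM, and all of these lay outside the chromosome 2 cluster. Among the 7 is SPL7, the gene mutated in spl7. The share of all rows counted at least once was not computed. The shares given below for each comparison are not matched for level: the median of the mean FPKM was 108 under the peaks and 29.8 over all rows. In whole seedlings, fewer cells of a type and less RNA per cell cannot be told apart.

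On MS, 3 genes were counted as lower and 1 as higher in spl7 than in wild type, of 355. That is 0.845% lower and 0.282% higher, where the shares over all 18658 rows tested were 1.05% lower and 0.541% higher; in either direction they were 1.13% and 1.59%. The lower genes were SPL7 (log2 ratio -2.35), AT5G14550 (-1.90) and PDF1.4 (-1.35). PDF1.4, a plant defensin gene (AT1G19610), stood at 16.9 FPKM in spl7 and 44.8 FPKM in wild type on MS, and its peak had a score of 184. The median log2 ratio of the 355 genes was 0.01, with quartiles of -0.11 and 0.15, and 340 (95.8%) lay within 0.5 of 0, against 91.9% of all rows tested. The nearest uncounted genes were AT4G37900 (-0.72), AT4G30840 (-0.66), AT1G08310 (0.78) and AT1G10000 (0.85).

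MAPR2 (AT2G24940), a membrane-associated progesterone-binding protein, was the gene counted as higher, and its values depend on a shared locus. It stood at 38.8 FPKM in spl7 and 0.00373 FPKM in wild type on MS (log2 ratio 5.31), and at 26.6 FPKM in spl7 and 0.587 FPKM in wild type with copper (4.12). Both wild-type values were very low: 99% of the rows above 0 exceeded 1.63 FPKM in wild type with copper and 1.499 FPKM in wild type on MS. The row shares its interval (chromosome 2, 10609394 to 10612232) with AT2G24945, which stood at 163 FPKM in spl7 with copper, 146 FPKM in spl7 on MS, 191 FPKM in wild type with copper and 181 FPKM in wild type on MS. AT2G24945 was thus lower where MAPR2 was higher; how reads were divided between these rows was not tested. The locus carried 2 peaks, with scores of 288 and 184.

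With added copper, 1 gene was counted as lower in spl7, SPL7 (-2.28), and 1 as higher, MAPR2, of 357. These shares were 0.280% each, against 0.814% lower and 0.989% higher over all 18805 rows tested, and 0.560% against 1.8% in either direction. The median log2 ratio was -0.02, with quartiles of -0.12 and 0.11, and 348 genes (97.5%) were within 0.5 of 0, against 93.6% of all rows. PDF1.4 stood at 24.0 FPKM in spl7 and 41.9 FPKM in wild type with copper (-0.78), short of 2-fold. LLG3 (AT4G28280), a GPI-anchored protein of the LORELEI family, stood at 4.74 FPKM in spl7 and 10.4 FPKM in wild type (-0.99).

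Added copper in wild type counted 2 genes as lower and 1 as higher, of 355. These shares were 0.563% and 0.282%, against 0.379% lower and 0.95% higher over all 18742 rows tested, and 0.845% against 1.33% in either direction. The comparison shares the library of wild type on MS with that of the genotypes on MS. AT5G14550 had a log2 ratio of -1.80, AT5G41680 one of -1.17 and AT4G32510 one of 2.27. The median was -0.02, with quartiles of -0.09 and 0.06. AT5G41680 stood at 3.65 FPKM with copper and 9.43 FPKM on MS and shares its locus with AT5G41685, which stood at 270 FPKM with copper and 251 FPKM on MS. AT4G32510 stood at 9.57 FPKM with copper and 1.19 FPKM on MS, and its peak had a score of 197. Among uncounted genes NCED3, an enzyme of abscisic acid synthesis, stood at 15.0 FPKM with copper and 24.1 FPKM on MS (-0.65).

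In spl7, added copper counted 1 gene as lower and 2 as higher, of 358. These shares were 0.279% and 0.559%, against 0.524% lower and 1.99% higher over all 18707 rows tested, and 0.838% against 2.51% in either direction. AT5G41680 stood at 2.16 FPKM with copper and 8.40 FPKM on MS (-1.57). AT4G32510 stood at 5.50 FPKM with copper and was listed at 0 on MS, so no fold is given. HSFA8, a heat stress transcription factor, stood at 16.3 FPKM with copper and 7.48 FPKM on MS (1.03), and its peak had a score of 183. AT5G41680 and AT4G32510 were thus counted in the same direction with copper in both genotypes, in comparisons that share no library. The median was -0.04, with quartiles of -0.15 and 0.06, and 335 genes (93.6%) were within 0.5 of 0, against 91.6% of all rows. NCED3 stood at 19.8 FPKM with copper and 35.4 FPKM on MS (-0.81), and the ABC transporter gene ABCB11 at 16.0 FPKM with copper and 8.11 FPKM on MS (0.90).

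**Figure D4:**
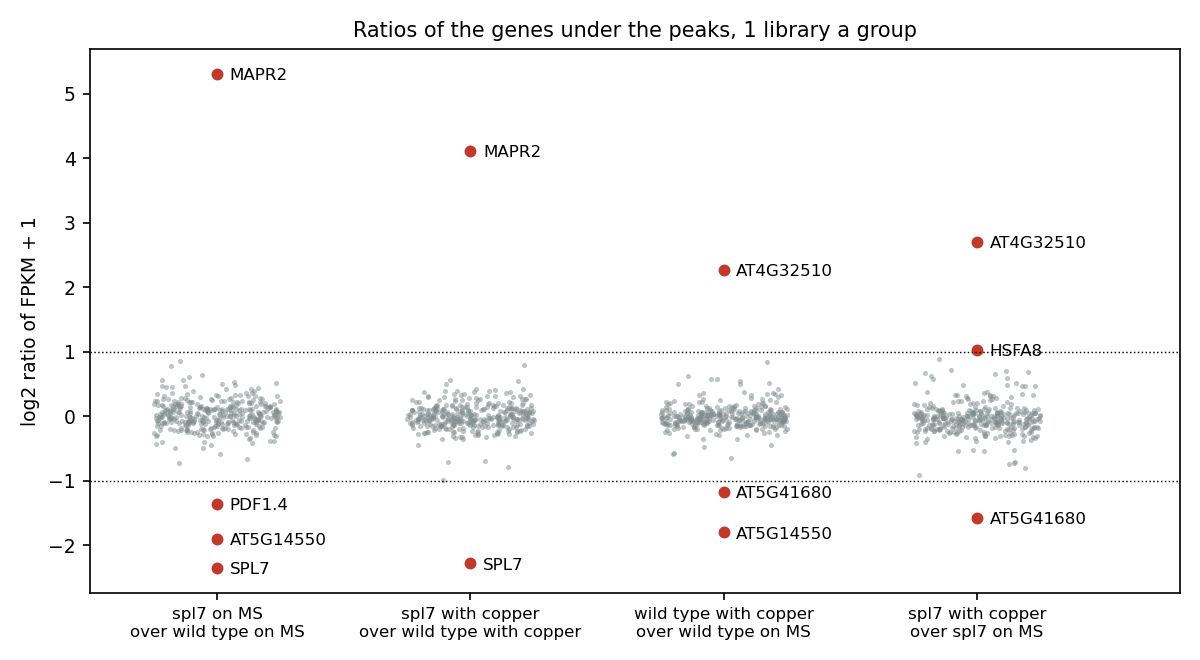
Log2 ratio of FPKM + 1 in each of 4 comparisons for the genes under these peaks that reached 5 FPKM in either library, with 1 point a gene and 1 library a group. Labelled points are the genes counted at 2-fold or more (dotted lines), 2 to 4 in a comparison; AT4G32510 is listed at 0 in spl7 on MS.

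The response to copper differed between genotypes for few of these genes, as for few of all rows. After subtracting the spl7 copper log2 ratio of each gene from its wild-type one, 1 of 358 genes (0.279%) lay at -1 or below and 3 (0.838%) at 1 or above, against 1.57% and 0.958% of all 18989 rows. AT5G14550 was the gene at the low end (-1.68), its copper ratios being -1.80 in wild type and -0.12 in spl7. The other 4 of the 5 lowest differences were AT4G26600 (-0.67), AT4G37900 (-0.58), PDF1.4 (-0.57) and AT5G19240 (-0.56). At the high end stood AT1G10000 (1.20), MAPR2 (1.19) and LLG3 (1.12), followed by AT1G08310 (0.97) and AT1G31490 (0.84). Seed marker transcripts differed between the libraries, with sums over 10 genes of 570 FPKM in spl7 with copper, 214 FPKM in spl7 on MS, 684 FPKM in wild type with copper and 329 FPKM in wild type on MS; CRU2, SESA2 and SESA4 were at 0 in at least 1 library. The sums of 10 root markers, all above 0 in every library, ran from 432 to 495 FPKM. The part of either in the ratios was not tested.

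Outside the cluster, the peaks that followed those of SPL7 and AT5G14550 by score lay over genes that were not counted in any comparison. The genes of this paragraph and the 3 that follow, the 5 highest by level apart, were chosen by peak score, symbol or role after their values were seen. The peak over AT5G21100 scored 718, and the gene stood at 384 FPKM in spl7 with copper, 383 FPKM in spl7 on MS, 351 FPKM in wild type with copper and 328 FPKM in wild type on MS. The peak over AT1G23780 scored 682, and its FPKM ran from 163 to 185. AT1G35560, a transcription factor of the TCP family, had a peak of score 600 and 123 to 143 FPKM. Another peak of score 600 lay at the locus shared by AT3G12510 and SULTR4;2, a transporter that releases sulfate from the vacuole. SULTR4;2 stood at 150 FPKM in spl7 with copper, 197 FPKM in spl7 on MS, 117 FPKM in wild type with copper and 133 FPKM in wild type on MS. It was thus higher in spl7 than in wild type on either medium, with log2 ratios of 0.57 on MS and 0.35 with copper, both under 2-fold. AT3G12510 stood at 26.2 FPKM in spl7 with copper, 16.4 FPKM in spl7 on MS, 31.1 FPKM in wild type with copper and 16.9 FPKM in wild type on MS. It was higher with copper in both genotypes, with log2 ratios of 0.65 in spl7 and 0.84 in wild type, also under 2-fold. The peaks over AT2G31820 (score 579) and AT5G39080 (score 549) lay at genes of 186 to 208 FPKM and 305 to 312 FPKM.

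Several transcription factors and other transcriptional regulators lay under the peaks, at different levels. RAV2, a repressor of flowering, stood at 367 FPKM in spl7 with copper, 410 FPKM in spl7 on MS, 305 FPKM in wild type with copper and 351 FPKM in wild type on MS. RVE1, a MYB factor that links the clock to auxin, stood at 262 FPKM in spl7 with copper, 323 FPKM in spl7 on MS, 212 FPKM in wild type with copper and 233 FPKM in wild type on MS, highest in spl7 on MS. Leaf patterning regulator AS1 ran from 265 to 288 FPKM, and the corepressor TPL, whose 2 peaks reached a score of 366, from 227 to 249 FPKM. The cytokinin response regulators ARR4 and ARR9 ran from 129 to 137 FPKM and from 166 to 175 FPKM. TCP8 had a peak of score 489 and 138 to 147 FPKM. DREB26 stood at 88.3 FPKM in spl7 with copper, 111 FPKM in spl7 on MS, 90.5 FPKM in wild type with copper and 136 FPKM in wild type on MS. Among the lowest of these, WRKY13 ran from 2.54 to 4.95 FPKM, and the membrane-bound NAC factor NTL8 was listed at 0 in spl7 on MS and stood at 2.42 to 4.68 FPKM in the other libraries.

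Transport genes under the peaks stayed under 2-fold in the examples that follow. ZIF1, a vacuolar transporter known for zinc tolerance, stood at 89.3 FPKM in spl7 with copper, 113 FPKM in spl7 on MS, 96.9 FPKM in wild type with copper and 110 FPKM in wild type on MS, and its peak scored 182. The nitrate transporter NRT1.5 stood at 279 FPKM in spl7 with copper, 217 FPKM in spl7 on MS, 282 FPKM in wild type with copper and 236 FPKM in wild type on MS, higher with copper in both genotypes but under 2-fold. DUR3, a urea transporter, stood at 67.7 FPKM in spl7 with copper, 48.6 FPKM in spl7 on MS, 45.7 FPKM in wild type with copper and 35.1 FPKM in wild type on MS. The plasma membrane proton pump HA3 ran from 323 to 373 FPKM and the vacuolar proton pump subunit VHA-A3 from 292 to 311 FPKM. The calcium sensor SOS3, known for salt tolerance, was low and even, at 10.3 to 11.2 FPKM.

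A few further genes are given as examples, without any theme being tested. The photoreceptor of UV-B light, UVR8, ran from 230 to 253 FPKM, and NYE1, which acts in chlorophyll breakdown, stood at 210 FPKM in spl7 with copper, 169 FPKM in spl7 on MS, 160 FPKM in wild type with copper and 144 FPKM in wild type on MS. CESA6, a cellulose synthase subunit, ran from 355 to 406 FPKM, and DGD1, a galactolipid synthase of chloroplasts, from 358 to 404 FPKM under a peak of score 426. The immune regulator RIN4 stood at 148 FPKM in spl7 with copper, 105 FPKM in spl7 on MS, 127 FPKM in wild type with copper and 120 FPKM in wild type on MS. EDS5, a transporter of salicylic acid synthesis, ran from 14.5 to 16.0 FPKM, and the NADPH oxidase RBOH F from 44.2 to 50.3 FPKM. The 5 highest rows were HCF101, FLA18, AT2G47380, AT2G17240 (397 FPKM) and the tubby-like protein gene TLP2 (389 FPKM). The lowest rows above 0 were AT3G06690 (mean 0.763 FPKM), AT4G15270 (1.16), the expansin-like gene EXLA3 (1.79), AT2G07715 (1.86) and the mismatch repair gene MLH3 (2.25).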

How the data were processed

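The deposited FPKM values carry Cufflinks columns, per the file headers; the submitters' processing notes name TopHat, Cufflinks and TAIR10, and the series description adds that reads with several matches were dropped. Their totals ran from 4383941 to 4694637 FPKM and their medians from 29.3 to 30.3, and the number of reads behind a value is unknown. The notes name CASAVA 1.8.2 and give no other version. Each peak's score is as deposited by the authors, under MACS peak names; for the ChIP-seq the notes name Bowtie and TAIR10. Caller version, threshold and use of the spl7 control are not given in those sources. The RNA kit named in the labels does not mark strand.

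Starts in both kinds of file count from 0 and are printed from 1. Overlaps, levels and log2 ratios (pseudocount 1 FPKM) were computed with Python 3.11.15, pandas 2.3.3 and numpy 2.4.6 and tested on simulated data. Of 27052 rows, 26903 could be given a locus code through a RefSeq table of TAIR10.1, used for names and gene order alone; of the 434 overlapped rows 432 did, CPuORF33 and CPuORF35 being the exceptions, and 99 share their interval with another row. Function classes by described name were planned but void, since 181 of 434 rows (41.7%) had one, under the 80% needed. The planned share of promoters with GTAC was not run, as no sequence was used here.

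Named were the 10 top-scoring peaks, the 5 widest, the 5 with most rows, the 3 on each side of the limit, counted genes (up to 10 a direction), the 5 largest copper differences a direction, list members, and the 5 highest and 5 lowest rows; since 64 rows tie at 0, the lowest above 0 are given. The members and lists were chosen with earlier results of these data known. The cluster and the 1 kb flank were added after the data were seen.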

Additional observations from a re-analysis of the deposited data

Results flagged for a closer look

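In 3 genes under the peaks the copper ratios of the genotypes had opposite signs and lay at least 1 apart on the log2 scale, with 1 library a group, so these differences were not tested. AT1G10000 stood at 7.01 FPKM with copper and 14.0 FPKM on MS in spl7, and at 9.15 FPKM with copper and 7.32 FPKM on MS in wild type, a difference of 1.20 between the wild-type and the spl7 ratio. LLG3 stood at 4.74 FPKM with copper and 7.32 FPKM on MS in spl7, and at 10.4 FPKM with copper and 6.60 FPKM on MS in wild type, a difference of 1.12. MAPR2 stood at 26.6 FPKM with copper and 38.8 FPKM on MS in spl7, and at 0.587 FPKM with copper and 0.00373 FPKM on MS in wild type, a difference of 1.19. It rests on wild-type values below the first percentile of the values above 0 in their libraries.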

How the results depend on the processing

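No paired analysis was possible because each group has 1 library. The number of peaks ran from 282 (limit of 200 FPKM) to 545 (limit of 800 FPKM) over 8 alternatives, all within 1.5 times of 407; with peak midpoints 327 qualified, 326 of them among the 407. The median score was 312 in the higher-scoring part of the whole list, and the other medians of score and width stayed within 1.5 times. Without the chromosome 2 cluster the medians were 196 and 343 bp.

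Counts of genes are small and moved easily. For spl7 against wild type on MS (4 genes) the count was 9 with a minimum of 1 FPKM and with none, 11 at 1.5-fold, 2 at 4-fold and 2 without rows that share a locus. For the genotypes with copper (2 genes) it was 6 with a minimum of 1 FPKM and with none, 7 at 1.5-fold and 1 without shared loci. For copper in wild type (3 genes) it was 5 with a minimum of 1 FPKM and with none, 1 with a minimum of 20 FPKM, 6 at 1.5-fold, 1 at 4-fold, 1 without shared loci and 5 with rows within 1 kb. For copper in spl7 (3 genes) it was 1 with a pseudocount of 5 FPKM, 5 with a minimum of 1 FPKM and with none, 0 with a minimum of 20 FPKM, 16 at 1.5-fold, 1 at 4-fold and 5 with rows within 1 kb. At 1.5-fold the shares of these genes were 3.1%, 1.96%, 1.69% and 4.47%, against 5.52%, 4.68%, 3.68% and 6.38% of all rows, in the order above. With a minimum of 1 FPKM they were 2.44%, 1.62%, 1.36% and 1.36%, against 3.52%, 3.61%, 2.96% and 4.47%. With no minimum they were 2.07%, 1.38%, 1.15% and 1.15%, against 2.61%, 2.68%, 2.2% and 3.32%. At 4-fold they were 0.563%, 0.56%, 0.282% and 0.279%, against 0.847%, 0.883%, 0.662% and 1.06%. Without shared loci they were 0.735%, 0.365%, 0.366% and 0.73%, against 1.61%, 1.74%, 1.16% and 2.46%. Together with rows within 1 kb they were 1.05%, 0.42%, 1.06% and 1.05%, against 1.59%, 1.8%, 1.33% and 2.51%. For copper in spl7 with a pseudocount of 5 FPKM the share was 0.279%, against 1.84%. With a minimum of 20 FPKM the shares were 1.21%, 0.606%, 0.304% and 0%, against 0.62%, 0.871%, 0.701% and 1.51% of all rows. Without genes listed at 0 they were 1.13%, 0.56%, 0.845% and 0.56%, against 0.928%, 1.07%, 0.884% and 1.85%. Under both of these last settings the order of the shares turned for the genotypes on MS alone. The cause was not tested.

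Of 36 recomputed ratios of counted genes, 33 stayed at 2-fold or more, 3 did not with a pseudocount of 5 FPKM (AT5G41680 at -0.90 in spl7 and -0.74 in wild type, and HSFA8 at 0.77) and 0 changed sign. Rescaling the libraries moved no log2 level by more than 0.01. Depth is unknown, so no counting error can be given.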
